A study of Mus musculus with 21 samples.

Results

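Tumour necrosis factor and the interleukin genes form a set of 10 listed members: Tnf, Il1a, Il1b, Il1rn, Il1r1, Il1rl1, Il33, Il6, Il10 and Il12b. Members were chosen by gene symbol in the platform's annotation, each read by its brightest probe with a single symbol. Of the 10 members, 9 had such a probe among 16248 genes measured, and each of the 9 had 1 probe. Il1rl1, the gene of the IL-33 receptor, had none and was left out.

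RNA of epididymal fat, a visceral depot, from male C57BL/6J mice was read on whole-transcript arrays. Animals arrived at 4 weeks of age, spent 1 week on chow and 12 weeks on a test diet, and lived in single cages. There were 21 arrays in 7 groups of 3. H_FMG mice ate the high-fat diet with 0.9% of fermented mixed grain by weight, and L_FMG mice with 0.3%. SMG mice ate it with 0.3% steamed grain and BC mice with 0.3% of Bacilus Coagulans (the labels' spelling), a probiotic. RMG mice are labelled with the high-fat diet, and the supplement behind this code is not described. HFD mice ate the high-fat diet alone, with 40% of energy from fat, and ND mice a normal diet with 10%. The groups thus differ by diet and not by a gene. The labels give no litter, cage or scan batch and do not say that the 3 arrays of a group are 3 animals beyond the number in each title. P-values measure the spread between these arrays, and 3 arrays per group limit the precision.

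All values are log2 levels as deposited, so that a difference of 1 is a doubling of the signal. Array medians over all probes lay between 4.23 and 4.39. The 5 measured adipocyte markers averaged between 9.35 and 9.95 on every array, and 10 measured epididymis genes between 2.99 and 3.40. Of the 9 members, 5 (Il1a, Il1b, Il6, Il10 and Il12b) were among the 5416 dimmest genes, with a mean level under 3.83. Detection calls were not used here, so whether these 5 stood above the background of the array is not known.

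TNF is a cytokine made mainly by macrophages, and in fat it dampens insulin signalling. The IL-1 family works through paired parts: IL-1 alpha and IL-1 beta are agonists, the product of Il1rn is an antagonist that binds the same receptor without a signal, and Il1r1 encodes that receptor. IL-33 is an alarm signal of stromal cells that sustains type 2 immune cells in fat. IL-6 is a product of activated myeloid and stromal cells, and the p40 subunit encoded by Il12b one of activated myeloid cells. IL-10 restrains both products. In lean fat macrophages are sparse, and in obesity they gather around dying adipocytes.

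The stretches of DNA before the start sites of 4 members are printed because the results divide these genes. Tnf and Il1rn rose in HFD against ND, and Il1b and Il6 did not pass there. Both Il1b and Il6 are among the dim members, for which a signal above background is not known. Each is 250 bases 5′ to 3′ on the gene's strand, ending at the base before the RefSeq start (GRCm38.p6), with matches to 4 short motifs in capitals.
Tnf, chr17:35202008-35202257, minus strand: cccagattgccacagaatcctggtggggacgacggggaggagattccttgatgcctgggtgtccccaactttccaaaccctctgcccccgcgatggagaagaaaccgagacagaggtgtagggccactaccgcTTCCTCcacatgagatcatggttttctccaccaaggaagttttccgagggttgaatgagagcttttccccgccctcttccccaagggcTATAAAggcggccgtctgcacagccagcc
Il1rn, first of its start sites, chr2:24336610-24336859, plus strand: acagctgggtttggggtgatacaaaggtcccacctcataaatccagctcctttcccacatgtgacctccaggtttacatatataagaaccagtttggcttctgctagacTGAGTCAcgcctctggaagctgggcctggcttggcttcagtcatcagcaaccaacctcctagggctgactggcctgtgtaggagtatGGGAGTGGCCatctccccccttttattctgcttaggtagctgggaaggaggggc
Il1b, chr2:129371140-129371389, minus strand: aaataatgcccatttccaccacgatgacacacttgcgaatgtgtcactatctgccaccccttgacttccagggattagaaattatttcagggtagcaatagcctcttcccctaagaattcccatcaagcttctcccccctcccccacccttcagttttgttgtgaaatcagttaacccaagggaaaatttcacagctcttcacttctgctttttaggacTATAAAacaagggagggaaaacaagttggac
Il6, chr5:30012864-30013113, plus strand: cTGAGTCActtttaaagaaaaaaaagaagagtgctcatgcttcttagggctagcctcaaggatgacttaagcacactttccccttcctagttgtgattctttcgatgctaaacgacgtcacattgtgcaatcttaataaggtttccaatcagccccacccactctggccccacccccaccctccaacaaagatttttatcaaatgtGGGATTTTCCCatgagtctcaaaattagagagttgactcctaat

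The motifs were searched on both strands in the windows of 8 measured members, which had 12 start sites in the RefSeq table. The NF-kB motif was written as GGGA, any 4 bases and CC, that of PU.1 (an ETS factor of myeloid cells) GAGGAA, that of AP-1 TGANTCA and the TATA box TATAAA. They were held by 17.6, 23.3, 6.75 and 12.4 percent of all 32851 windows of this length. The NF-kB motif was matched in Il6, 34 to 44 bases before the start, where 2 matches on opposite strands overlap, and in Il1rn, 45 to 54 bases before. The AP-1 motif was matched in Il1a, Il6 and Il1rn, the PU.1 motif in Tnf, Il1a and Il12b, and the TATA box in Tnf, Il1a, Il1b and Il33. No match to any of the 4 was found in the windows of Il1r1. The matches of Il1rn all lay in the printed window of its first start site, and its other windows held none. A match is a run of letters and not evidence that a factor binds there.

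The first comparison is HFD with ND, the effect of the high-fat diet itself. Of the 9 members 2 rose and 0 fell: Tnf and the antagonist gene Il1rn. Over all genes 6.54 percent rose and 2.09 percent fell, together 8.63 percent, by limma with Benjamini-Hochberg adjustment over 16248 genes at 0.05. The median change of the 9 members was 0.08, against -0.04 for all genes.

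Among the agonists, Tnf stood at 5.50, 5.75 and 5.46 in HFD arrays, against 4.82, 4.68 and 4.84 in ND arrays. The 2 groups did not overlap, and the gap between them was wider than the spread within either. Tnf rose by 0.79 ± 0.21 (log2 change ± SE, n = 3 against 3), a fold of 1.73, with an adjusted p of 0.0247. The gene missed the threshold when HFD array 6 was left out (change 0.70, adjusted p = 0.124), and likewise for HFD array 4 (0.83, 0.0505) and ND array 8 (0.74, 0.0712). In bulk fat, more cells of a type and more RNA per cell cannot be told apart.

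Il1b, the agonist released by inflammasome-active macrophages, did not pass. It stood at 3.30, 3.43 and 3.23 in HFD arrays, against 2.86, 3.41 and 3.47 in ND arrays. The HFD arrays lay inside the ND range, and the change was 0.08 ± 0.20, with a 95% interval of -0.35 to 0.50 (adjusted p = 0.846). Il1a, the agonist that is active without cleavage, had a change of -0.07 ± 0.15 (adjusted p = 0.797). Il6 had -0.04 ± 0.13 and Il12b -0.04 ± 0.14, with adjusted p of 0.874 and 0.892. Il33 stood at 4.54, 4.75 and 4.76 in HFD arrays, against 4.92, 4.75 and 4.43 in ND arrays. Its change was -0.01 ± 0.19, with an interval of -0.42 to 0.39 (adjusted p = 0.971). Over all arrays Il1a ran from 2.40 to 3.11, Il6 lay at or under 2.06, and Il12b ran from 2.77 to 3.37. For these 5 genes the intervals lay within -0.42 to 0.50, and for each the HFD and ND arrays overlapped.

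Among the restraining genes, Il1rn stood at 5.46, 6.14 and 5.31 in HFD arrays, against 4.28, 4.25 and 4.87 in ND arrays. HFD array 6 was the highest and ND array 9 the highest of its group, and the groups did not overlap. Il1rn rose by 1.17 ± 0.27, a fold of 2.25 (adjusted p = 0.00954), and the call was lost without HFD array 6 (0.92, adjusted p = 0.0789). Il10, which restrains macrophage cytokine output, stood at 2.59, 2.51 and 2.45 in HFD arrays, against 1.96, 2.41 and 2.61 in ND arrays. Its groups overlapped, and the change was 0.19 ± 0.21 (adjusted p = 0.599).

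The receptor gene Il1r1 stood at 7.06, 7.06 and 7.22 in HFD arrays, against 6.98, 6.53 and 6.89 in ND arrays. All HFD arrays lay above all ND arrays, by a small margin. The change was 0.32 ± 0.14 and did not pass (adjusted p = 0.166). With Tnf and Il1rn it was 1 of 3 members whose arrays did not overlap in the upward direction, where 15.7 percent of all genes did so, and 0 members lay wholly lower, against 13 percent.

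**Figure D1:**
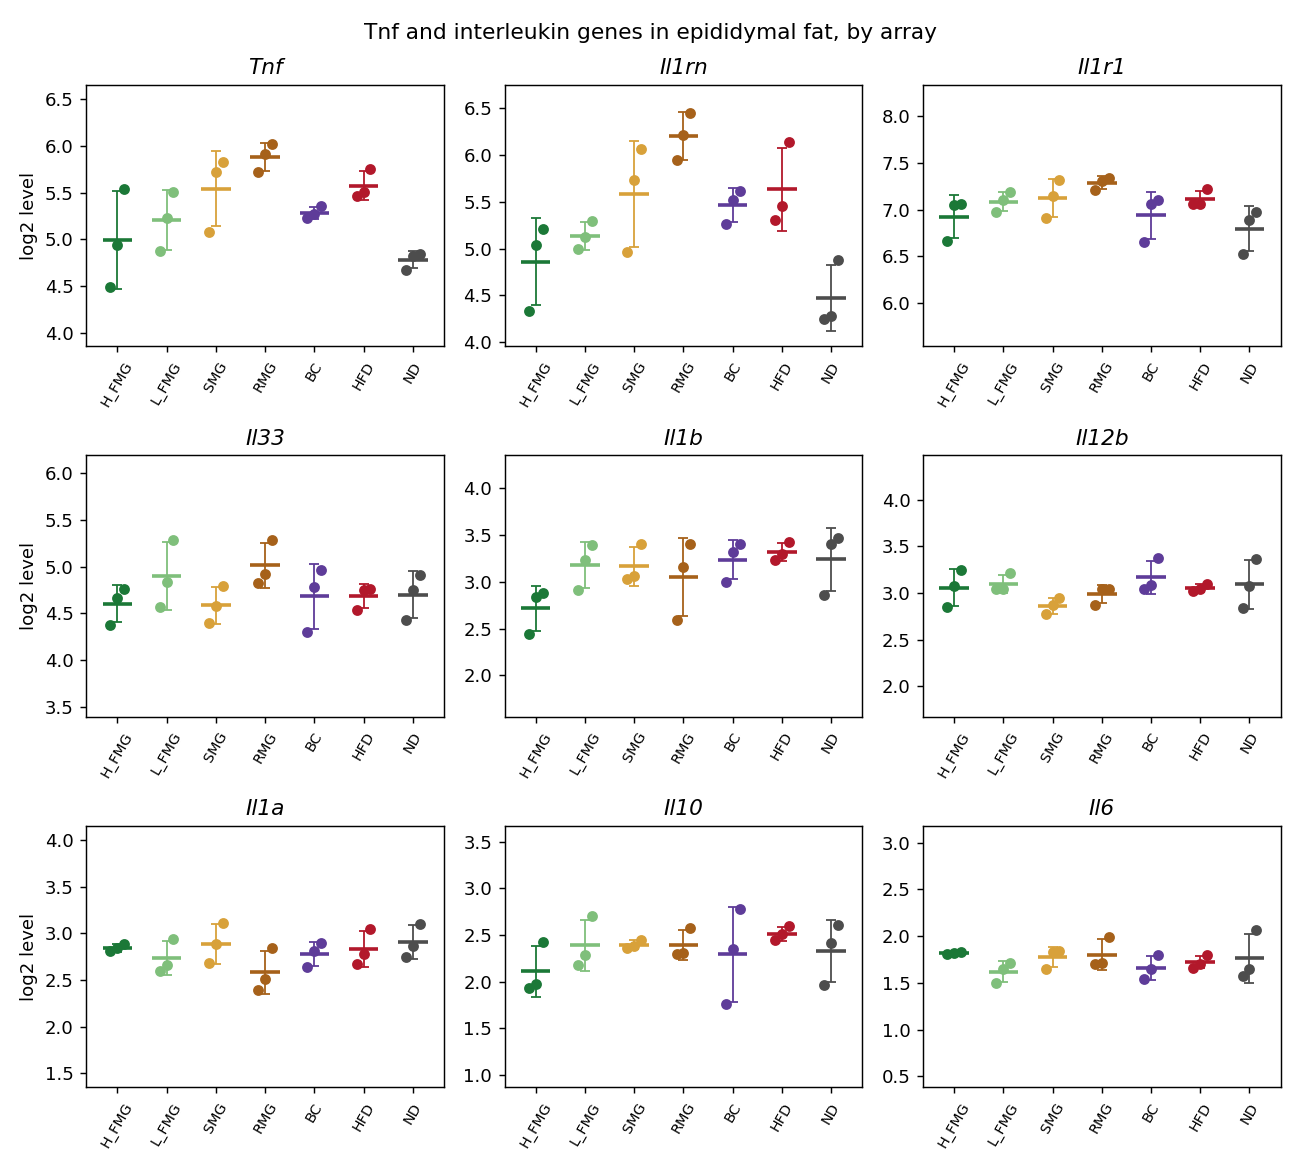
Log2 level (vertical axis, 2.8 units tall in every panel) of the 9 measured members in the 7 diet groups; points are arrays, the wide line is the group mean and the bar 1 SD (n = 3). Tnf and Il1rn stand highest in RMG (means 5.88 and 6.21) and lowest in ND (4.78 and 4.47), while the group ranges of Il33, Il1a, Il6 and Il12b overlap those of ND in every other group.

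Among the groups with a supplement, Tnf and Il1rn also rose in RMG and SMG against ND. All comparisons with ND, that of HFD included, share the same 3 ND arrays and are not independent of each other. In RMG against ND 3 members rose, where 10.2 percent of all genes did, and 0 fell, against 4.53 percent. Tnf stood at 5.72, 6.02 and 5.91 in RMG arrays and rose by 1.10 ± 0.21, a fold of 2.14 (adjusted p = 0.00146). Il1rn stood at 6.22, 6.46 and 5.94 in RMG arrays and rose by 1.74 ± 0.27, a fold of 3.34 (adjusted p = 0.000346). Both genes lay wholly above ND, as 17.1 percent of all genes did (12.5 percent lay wholly below), and passed whichever single RMG or ND array was left out.

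Il1r1 was the third, at 7.21, 7.31 and 7.34 in RMG arrays. It rose by 0.49 ± 0.14 (adjusted p = 0.0221), and all RMG arrays lay above the ND arrays. Il1r1 no longer passed when ND array 8 was left out (0.35, adjusted p = 0.12), nor without RMG array 9 (0.48, 0.0613) or RMG array 10 (0.46, 0.0777). It was also lost after quantile normalization (0.35, adjusted p = 0.0846) and with only the RMG and ND arrays in the fit (adjusted p = 0.0572).

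In SMG against ND 2 members rose, Tnf and Il1rn, where 4.74 percent of all genes did, and 0 fell, against 1.1 percent. Tnf stood at 5.72, 5.83 and 5.08 in SMG arrays and rose by 0.76 ± 0.21 (adjusted p = 0.0395). Il1rn stood at 6.06, 5.74 and 4.96 in SMG arrays and rose by 1.12 ± 0.27 (adjusted p = 0.0189). SMG array 12 was the low one for both genes, though still above every ND array. In all 2 members lay wholly higher in SMG than in ND and 0 wholly lower, where 11.2 and 10.3 percent of genes did. Both calls were lost in a fit of the SMG and ND arrays alone (adjusted p = 0.177 for Tnf and 0.176 for Il1rn) and without ND array 6, ND array 8, SMG array 5 or SMG array 8. Without those arrays the adjusted p of Tnf was 0.0646, 0.106, 0.201 and 0.19, and that of Il1rn 0.0529, 0.0731, 0.151 and 0.0967. Tnf alone also lost the call without ND array 9 (adjusted p = 0.0571), after quantile normalization (0.052) and with every probe tested (0.0535).

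In BC, L_FMG and H_FMG against ND, limma called 0 of 9 members. At an unadjusted p under 0.05 there were 2, 1 and 1 members, against 2454, 2089 and 1359 of 16248 genes. Over all genes, 0.0923 percent rose and 0.0185 percent fell in BC, and 0.00615 percent rose and 0 percent fell in L_FMG and likewise in H_FMG. Tnf stood at 5.27, 5.35 and 5.23 in BC arrays, wholly above ND, with a change of 0.50 ± 0.21 (adjusted p = 0.262). Il1rn stood at 5.26, 5.62 and 5.52 in BC arrays, also wholly above ND, with a change of 1.00 ± 0.27 (adjusted p = 0.0927). In BC 9.15 percent of all genes lay wholly above ND and 7.49 percent wholly below. Without ND array 9 the count of members called in BC against ND was 1, Il1rn.

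In L_FMG arrays Tnf stood at 5.23, 5.51 and 4.87 and Il1rn at 5.12, 5.29 and 4.99. Both lay above all ND arrays, as 6.73 percent of genes did (6.57 percent lay wholly below). The changes were 0.42 ± 0.21 for Tnf and 0.67 ± 0.27 for Il1rn (adjusted p = 0.408 and 0.286). In H_FMG arrays Tnf stood at 5.54, 4.94 and 4.49 and Il1rn at 5.21, 5.04 and 4.33. For both genes H_FMG array 8 lay inside or below the ND range and H_FMG array 3 far above it. In H_FMG 0 members lay wholly higher or lower than in ND, where 4.79 and 5.49 percent of genes did. The changes of H_FMG against ND were 0.21 ± 0.21 for Tnf and 0.39 ± 0.27 for Il1rn (adjusted p = 0.823 and 0.709).

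Against HFD, the question is whether a supplement lowers or raises these genes on the high-fat diet. Limma called 0 of 9 members in each of the 5 comparisons, and in all of them together 1 gene of 16248 passed, in H_FMG. At an unadjusted p under 0.05 there were 3 members in H_FMG, 1 in RMG (Il1rn) and 0 in L_FMG, SMG and BC, against 2350, 458, 1407, 300 and 841 genes. These comparisons share the 3 HFD arrays.

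H_FMG against HFD held the lowest values. Il1rn had a change of -0.78 ± 0.27, with a 95% interval of -1.33 to -0.22 (adjusted p = 0.185), and all 3 H_FMG arrays lay below the HFD arrays. Tnf had a change of -0.59 ± 0.21, with an interval of -1.03 to -0.14 (adjusted p = 0.213), but H_FMG array 3, at 5.54, lay within the HFD range. Without that array the change of Tnf was -0.86 and passed (adjusted p = 0.0416), and without H_FMG array 8 it was -0.34 (adjusted p = 0.721).

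Il1b stood at 2.88, 2.44 and 2.84 in H_FMG arrays, against 3.30, 3.43 and 3.23 in HFD arrays. The groups did not overlap, and the change was -0.60 ± 0.20, with an interval of -1.03 to -0.18 (adjusted p = 0.185). Il10 stood at 1.97, 1.94 and 2.42 in H_FMG arrays, against 2.59, 2.51 and 2.45 in HFD arrays. Its change was -0.41 ± 0.21 (adjusted p = 0.391), again without overlap. In all, 3 members lay wholly lower in H_FMG than in HFD and 1, Il6, wholly higher, where 11.4 and 10.7 percent of all genes did. Il1b, Il10 and Il6 are dim members, for which a signal above background is not known.

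The remaining comparisons with HFD gave smaller values. In L_FMG Il1rn had a change of -0.50 ± 0.27 (adjusted p = 0.595) and Tnf of -0.37 ± 0.21 (adjusted p = 0.624). Il1rn was the 1 member whose L_FMG arrays all lay below HFD, where 10.1 percent of genes did, and 0 lay above, against 7.3 percent. In BC Tnf had -0.29 ± 0.21 and Il1rn -0.17 ± 0.27, and in SMG they had -0.03 ± 0.21 and -0.05 ± 0.27 (adjusted p at least 0.936 for every member in both). In RMG Il1rn had 0.57 ± 0.27 and Tnf 0.31 ± 0.21 (adjusted p = 1.00 for every member). Of single members, Tnf lay wholly lower in BC (7.35 percent of genes did) and Il12b, a dim member, wholly lower in SMG (3.51 percent). Il33 lay wholly higher in RMG (6.35 percent). In the opposite directions there were 0 members, where 7.11 percent of genes did so in BC, 4.75 percent in SMG and 4.65 percent in RMG. With the 5 supplemented groups pooled, the changes against HFD were -0.19 ± 0.16 for Tnf and -0.18 ± 0.21 for Il1rn (adjusted p = 0.954 and 0.97), and 0 members passed by limma, with 0 at an unadjusted p under 0.05.

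Between doses, H_FMG against L_FMG, limma called 0 members and 0 genes, and 1 member, Il1b, had an unadjusted p under 0.05, against 636 genes. Il1b lay wholly lower in H_FMG (3.28 percent of genes did) and Il6 wholly higher (4.79 percent), and both are dim members. Il1b had a change of -0.46 ± 0.20, Tnf of -0.22 ± 0.21 and Il1rn of -0.28 ± 0.27 (adjusted p = 0.998 for each). At equal weight, L_FMG against SMG, limma likewise called 0 members and 0 genes, with 0 members and 886 genes at an unadjusted p under 0.05. Tnf had a change of -0.34 ± 0.21 with an interval of -0.78 to 0.11, and Il1rn of -0.45 ± 0.27 (adjusted p = 0.844 for both). Il12b, a dim member as well, lay wholly higher in L_FMG, where 4.25 percent of genes did, and 0 members wholly lower, against 4.94 percent.

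**Figure D2:**
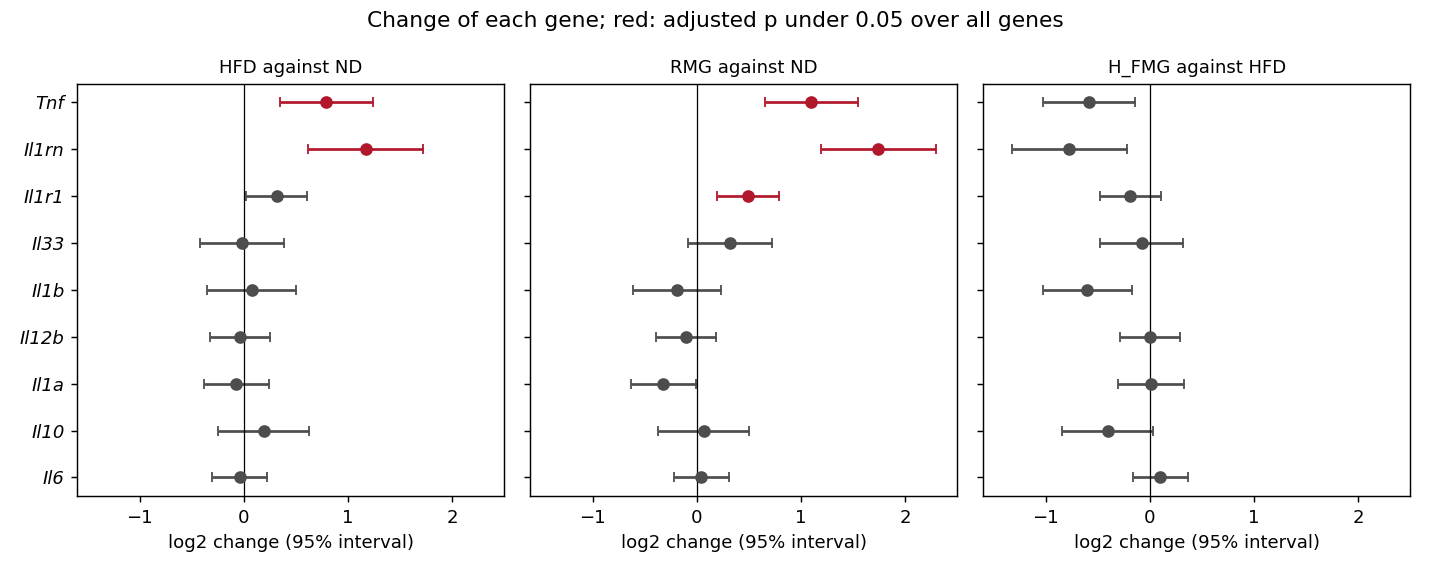
Log2 change (horizontal axis) of each of the 9 members with its 95% interval, in HFD against ND, RMG against ND and H_FMG against HFD; red marks an adjusted p under 0.05 over all genes (n = 3 against 3). Tnf and Il1rn are red in the first 2 panels and Il1r1 in the second, and 0 members are red in the third, where the intervals of Tnf, Il1rn and Il1b lie below 0.

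Across all 7 groups at once, a moderated F test in limma passed for 2 members, Il1rn (adjusted p = 0.00651) and Tnf (adjusted p = 0.0211), where 6.47 percent of genes passed. The adjusted p was 0.258 for Il1r1 and at least 0.435 for each of the other 6. Tnf missed the threshold without ND array 8, RMG array 9 or RMG array 10 (adjusted p = 0.066, 0.0674 and 0.0612), and the count was then 1. By mean level ± SD (n = 3), Tnf stood at 5.88 ± 0.15 in RMG, 5.57 ± 0.16 in HFD, 5.54 ± 0.40 in SMG, 5.29 ± 0.06 in BC, 5.20 ± 0.32 in L_FMG, 4.99 ± 0.53 in H_FMG and 4.78 ± 0.09 in ND. Il1rn had the same order: 6.21 ± 0.26 in RMG, 5.64 ± 0.44 in HFD, 5.59 ± 0.57 in SMG, 5.47 ± 0.19 in BC, 5.14 ± 0.15 in L_FMG, 4.86 ± 0.47 in H_FMG and 4.47 ± 0.35 in ND. Every pair of neighbours in these orders overlapped between arrays. The gap between neighbours exceeded the larger of their SDs only between RMG and HFD for both genes and between BC and L_FMG for Il1rn.

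Il1r1 stood at 7.29 ± 0.07 in RMG, 7.12 ± 0.21 in SMG, 7.11 ± 0.09 in HFD, 7.09 ± 0.11 in L_FMG, 6.94 ± 0.25 in BC, 6.93 ± 0.23 in H_FMG and 6.80 ± 0.24 in ND. Each step between neighbours was smaller than the larger of their SDs. Il1b had its highest mean in HFD and its lowest in H_FMG, Il10 likewise, and Il33 its highest in RMG and its lowest in SMG. ND held neither the highest nor the lowest mean of Il1b, Il6, Il10, Il12b or Il33, and neighbouring groups overlapped for every member.

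Macrophage markers had the same order of group means as Tnf and Il1rn. Of 16 listed markers 15 were measured, and their mean level was 9.12 ± 0.08 in RMG, 8.94 ± 0.10 in HFD, 8.81 ± 0.43 in SMG, 8.55 ± 0.28 in BC, 8.44 ± 0.20 in L_FMG, 8.19 ± 0.40 in H_FMG and 7.87 ± 0.31 in ND. In HFD against ND 13 of the 15 rose and 0 fell, with a median change of 1.05, among them Adgre1, which encodes a surface antigen of mature macrophages, by 1.51 ± 0.31 and Fcgr1, an immunoglobulin receptor gene, by 1.99 ± 0.31. In H_FMG against HFD 14 of the 15 had a negative change, with a median of -0.81. Limma called 0 of them, and 12 had an unadjusted p under 0.05. In the same comparison all 10 endothelial markers had a positive change (median 0.42, 9 at an unadjusted p under 0.05), all 10 fibroblast markers a negative one (median -0.41, 6) and 8 of 10 mast cell markers a negative one (median -0.17, 4). Limma called 0 of these as well, and their part in the members' values was not tested.

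Each gene was therefore also fitted for its slope on the macrophage mean among arrays of the same diet, with 1 coefficient per group, so that differences between diets do not enter. Of the 9 members 3 had a positive slope past the threshold, against 4.36 percent of all genes, and 0 a negative one, against 2.05 percent. The slope of Il1rn was 1.14 ± 0.17 log2 units per unit of the macrophage mean (adjusted p = 8.94e-05), that of Tnf 0.81 ± 0.16 (adjusted p = 0.00266) and that of Il1r1 0.45 ± 0.12 (adjusted p = 0.0296), over 21 arrays. The median slope of the 15 markers was 1.15, each fitted on a mean from which it was left out.

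None of the other members had a slope past the threshold, which does not show that a slope was absent. All of them but Il33 are dim members, for which a signal above background is not known. Il1b had 0.16 ± 0.23 (adjusted p = 0.816), Il33 0.10 ± 0.22 (adjusted p = 0.904), Il10 -0.06 ± 0.24 (adjusted p = 0.949) and Il6 -0.05 ± 0.15 (adjusted p = 0.926). Il1a had -0.16 ± 0.17 and Il12b -0.18 ± 0.16 (adjusted p = 0.73 and 0.645). The slopes of Tnf and Il1rn passed whichever of the 21 arrays was left out, with ranges of 0.67 to 0.94 and 1.08 to 1.20. That of Il1r1 stayed between 0.39 and 0.50 but missed the threshold without any 1 of ND array 8, BC arrays 4 and 7, SMG arrays 5 and 12 and H_FMG arrays 3 and 8 (adjusted p = 0.055, 0.0974, 0.0559, 0.0876, 0.136, 0.0503 and 0.115), and without the intensity trend (0.0543). Other markers moved along this axis too: 5 of 10 endothelial markers had a negative slope past the threshold and 4 of 10 fibroblast markers a positive one. Positive slopes past the threshold were also found for 2 of 10 mast cell markers (Cpa3, 2.04 ± 0.54, and Tpsb2, 1.14 ± 0.27), 2 of 6 neutrophil markers (S100a8, 1.09 ± 0.31, and Csf3r, 0.46 ± 0.14) and 1 of 5 dendritic cell markers (Clec10a, 0.72 ± 0.20). These lists were mixed: the slope was positive for 6 of 10 mast cell, 2 of 6 neutrophil and 3 of 5 dendritic cell markers. Their median slopes were 0.16, -0.07 and 0.14. The part of all these markers in the members' slopes was not tested.

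**Figure D3:**
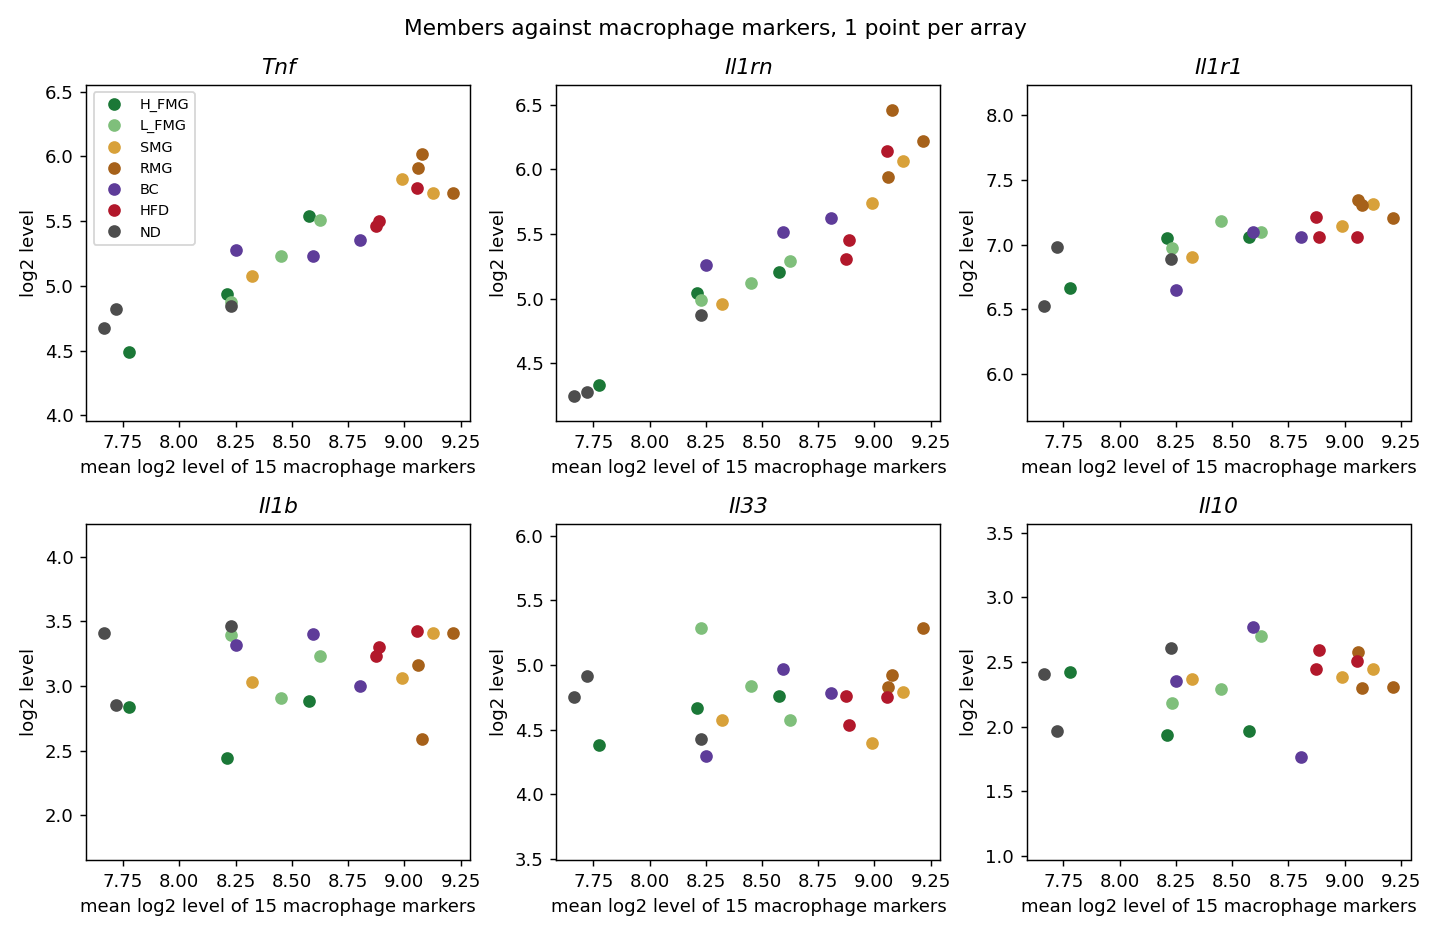
Log2 level of 6 members (vertical axis, 2.6 units tall in every panel) against the mean log2 level of 15 macrophage markers (horizontal axis), 1 point per array, coloured by diet. Tnf and Il1rn climb with the macrophage mean within and between diets (within-diet slopes 0.81 and 1.14), Il1r1 less so (0.45), and Il1b, Il33 and Il10 scatter (slopes 0.16, 0.10 and -0.06).

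With the macrophage mean added to the fit of the diets, a setting chosen after the data were seen, the difference of HFD from ND was -0.08 ± 0.23 for Tnf, -0.05 ± 0.23 for Il1rn and -0.17 ± 0.17 for Il1r1. For RMG against ND it was 0.08 ± 0.25, 0.32 ± 0.25 and -0.07 ± 0.19. For H_FMG against HFD it was 0.03 ± 0.19, 0.08 ± 0.19 and 0.15 ± 0.14. In that fit 0 of 16248 genes passed in HFD against ND and 1 in RMG against ND, where 1403 and 2401 passed without the macrophage mean, so the calls of these members were lost along with nearly all others. In H_FMG against HFD there were 0 member calls to lose. The macrophage mean itself differs between diets, and an effect of diet and one of macrophage content cannot be told apart by this fit.

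**Figure D4:**
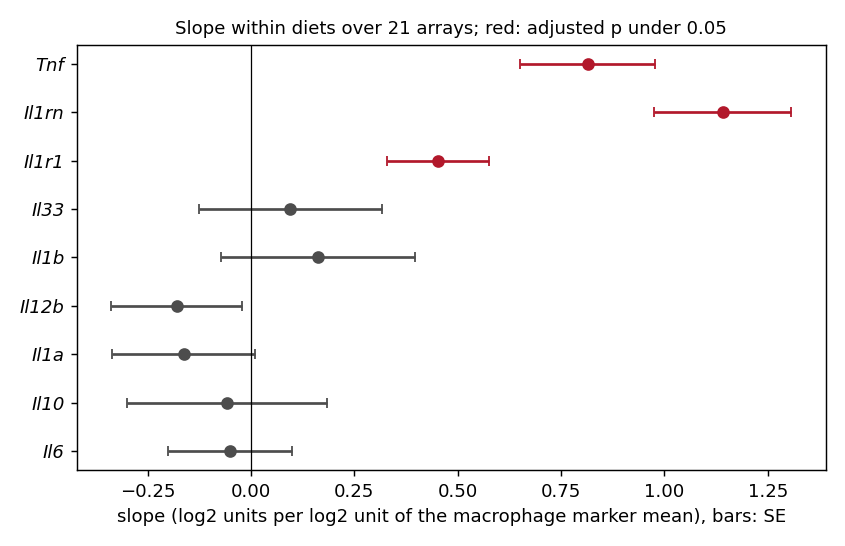
Slope of each of the 9 members on the macrophage marker mean among arrays of the same diet (horizontal axis, log2 units per log2 unit; bars 1 SE, 21 arrays); red marks an adjusted p under 0.05 over all genes. Il1rn, Tnf and Il1r1 lie to the right at 1.14, 0.81 and 0.45, and the points of the other 6 lie between -0.18 and 0.16.

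The genes whose levels followed the members most closely were taken as the 3 highest Pearson correlations over the 21 arrays, as a description. Predicted gene models (Gm followed by digits, and Rik names) were left out, so a closer one may exist. These arrays share diets and macrophage content, and the values were picked as the highest among the rest of the 16248 genes. For Tnf they were Slc35f6 (r = 0.97), Heatr5a (0.96) and Tmem104 (0.96), and for Il1rn they were Rgs2, a regulator of G-protein signalling (0.97), Efr3b (0.97) and Clic1, a chloride channel protein (0.97). For Il1r1 they were Atf4, a transcription factor of the stress response (0.91), Cdk6, a cell cycle kinase (0.89), and Ak8 (0.89). For Il1a, Il1b, Il6, Il12b, Il33 and Il10 the closest genes were Cd1d2, Fgf6, Ccdc43, Grsf1, Ppil1 and C9, with r between 0.73 and 0.79.

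Of 106 listed partners of these cytokines, in 7 lists, 64 were measured, and the others had no value here. In HFD against ND 14 rose and 0 fell, which is 14 of 64 where 6.54 percent of all genes rose. The lists were chosen with earlier results of these data known, so these shares are a description and not an independent test. TNF receptors and signalling genes held 5 of the 14 (of 12 measured, median change 0.32). Adam17, the protease that sheds TNF from the membrane, stood at a mean of 7.65 in HFD and 6.84 in ND and rose by 0.82 ± 0.18 (adjusted p = 0.00799). Tnfrsf1b, the second TNF receptor, rose by 0.80 ± 0.22 (adjusted p = 0.0292). Casp8, the caspase of death receptors, rose by 0.66 ± 0.15, Traf5, an adaptor, by 0.58 ± 0.18, and Tnip1, a brake on NF-kB, by 0.57 ± 0.14. The first TNF receptor, Tnfrsf1a, was among the 7 that did not pass.

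Genes of IL-1 processing and signalling held 4 (of 10 measured among 18 listed, median change 0.24). Casp1, Pycard and Myd88 were among the genes of this list that were not measured. Aim2, a DNA sensor that forms an inflammasome, rose by 0.79 ± 0.17 (adjusted p = 0.00841), Gsdmd, whose protein forms pores for IL-1 release, by 0.54 ± 0.12, Irak3, an inhibitor of IL-1 signalling, by 0.48 ± 0.12 and Tab2 by 0.36 ± 0.11. Nlrp3, the sensor of another inflammasome, had 0.03 ± 0.13 (adjusted p = 0.907). In the IL-1 family list 1 of 6 rose, Il1rl2, the IL-36 receptor gene, by 0.58 ± 0.15, while the decoy receptor gene Il1r2 had 0.32 ± 0.21 and the co-receptor gene Il1rap 0.23 ± 0.17 (adjusted p = 0.354 and 0.419). In the NF-kB list 1 of 7 rose, the subunit gene Rel, by 0.64 ± 0.16, and Nfkbie and Zc3h12a had 0.47 ± 0.17 and 0.33 ± 0.16 (adjusted p = 0.092 and 0.207).

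On the side of IL-6 and IL-10, 1 of 12 rose, the receptor subunit gene Il10rb, by 0.66 ± 0.14 (adjusted p = 0.00749), and Il6ra had 0.22 ± 0.11 (adjusted p = 0.197). Of 8 IL-12 partners 0 passed by limma, and 3 had an unadjusted p under 0.05. The nearest was Ebi3, a subunit of IL-27, at 0.62 ± 0.20 (adjusted p = 0.0538). Among 9 partners of IL-33 and type 2 immunity, 2 rose: Il7r, the IL-7 receptor gene, by 2.59 ± 0.47 and Stat6, the mediator of IL-4 signals, by 0.29 ± 0.08. That list's median change was -0.12, and 3 of its 9 changes were positive. In RMG against ND 17 of the 64 rose, where 10.2 percent of all genes did, and in SMG against ND 10, where 4.74 percent did. By limma 0 passed in any comparison with HFD, and in H_FMG 14 of the 64 had an unadjusted p under 0.05, against 2350 of 16248 genes.

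**Figure D5:**
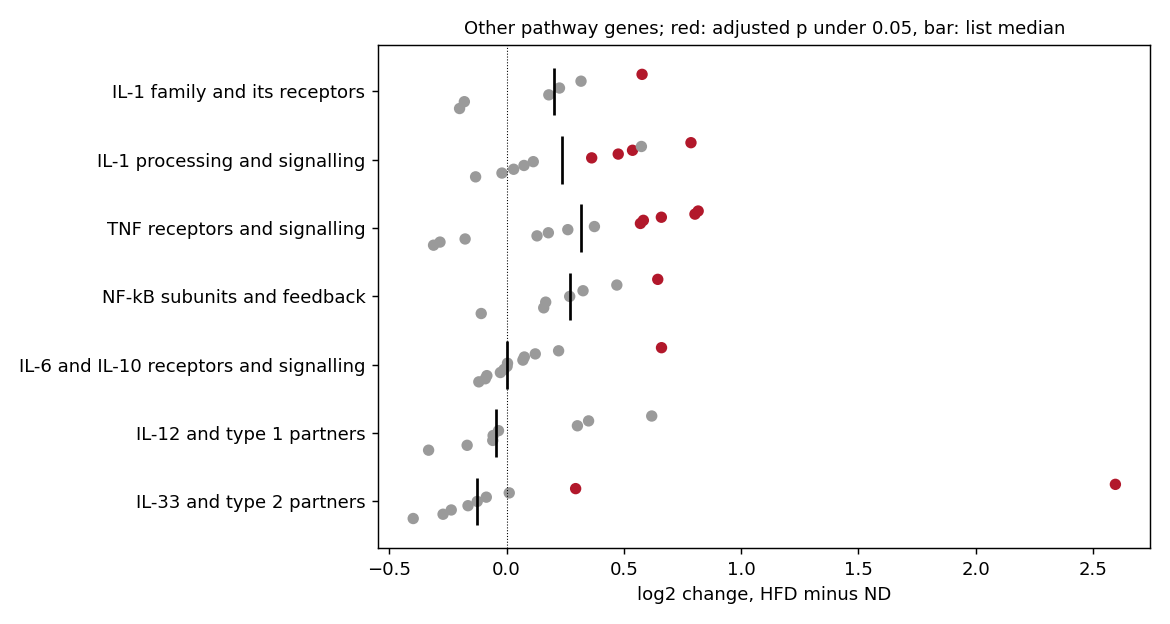
Log2 change in HFD minus ND (horizontal axis) of 64 measured partner genes in 7 lists, 1 point per gene; red marks an adjusted p under 0.05 over all genes and the black bar the list's median. All 14 red points lie to the right of 0, and the far point at 2.59 is Il7r.

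Of the same 64 genes 11 had a positive slope on the macrophage mean within diets and 0 a negative one past the threshold, where 4.36 and 2.05 percent of all genes did. Tnfrsf1b had 1.03 ± 0.11 (adjusted p = 1.72e-06), Adam17 0.72 ± 0.13, Aim2 0.70 ± 0.12, Rel 0.69 ± 0.10 and Il10rb 0.51 ± 0.11. Il7r had the steepest of the 11, at 2.04 ± 0.29, and Ifngr2, a subunit of the interferon gamma receptor, and Gsdmd the shallowest, at 0.43 ± 0.11 and 0.40 ± 0.11.

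Markers of other cells that could make these cytokines were read in the same way. In HFD against ND 1 of 6 neutrophil markers rose, the growth factor receptor gene Csf3r, by 0.69 ± 0.15, and the list's median change was -0.13. Of 10 mast cell markers 2 rose, the protease genes Cpa3 by 2.36 ± 0.62 and Mcpt4 by 1.60 ± 0.43, while 5 had a negative change and the list's median was 0.04. Limma called 0 of 5 dendritic cell markers, 0 of 4 lymphoid markers and 0 of 9 mesothelial markers, with 1, 0 and 0 at an unadjusted p under 0.05. Mesothelial cells can make IL-33. Fibroblast markers, from another such source, had 4 of 10 that rose, among them Pdgfra by 0.63 ± 0.14, beside an Il33 change of -0.01. Endothelial markers went the other way: all 10 had a negative change (median -0.38), with 8 at an unadjusted p under 0.05. By limma 2 of them fell, Vwf by -0.71 ± 0.12 and Egfl7 by -0.61 ± 0.14, where 2.09 percent of all genes fell. The part of any of these markers in the members' values was not tested.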

How the data were processed

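The authors deposited log2 levels, 1 per probe and array, with their summarisation and normalization not given in the sources used here; the log base was taken from the values (0.84 to 12.7). Per the labels' protocols, RNA was extracted with Trizol and biotin-labelled cDNA hybridised to whole-transcript arrays. Of 24292 probes, 24291 had all 21 values (the last row ended after 12), and 17067 of these had 1 symbol in the platform annotation. The brightest probe by mean stood for each of 16248 genes; 0 columns were unmatched and 0 array pairs identical. No further normalization was applied.

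Limma 3.58.1 in R 4.3.3 was fitted over all genes and 21 arrays with 1 coefficient per group and an intensity trend. P-values are two-sided and adjusted by Benjamini-Hochberg over all genes in a comparison (threshold 0.05). The test was also run on simulated data with independent noise for each gene, a setting that does not cover genes that vary together. The members and gene lists were chosen with earlier results of these data known. Genes named are all members, the passing or 3 leading genes of each pathway list, up to 3 per marker list and the closest correlates; Nlrp3, Tnfrsf1a and the named markers' slopes were chosen after their values were seen. Alternatives were quantile normalization, dim genes left out, all probes, only the groups compared, no intensity trend, the title number as a replicate block, Adgre1 in place of the marker mean, and each array left out. Same-numbered arrays did not deviate together (18 pairs, correlations -0.30 to 0.18). The labels do not say what the number means, so a pairing by number was not modelled in the main fit and is not excluded.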

Additional observations from a re-analysis of the deposited data

How the results depend on the processing

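Counts of members called kept within 1.5 times of the main count in the settings tried, except as follows. Leaving out 1 array gave 0 to 2 for HFD against ND, 0 to 1 for H_FMG against HFD, 0 to 1 for BC against ND, 0 to 2 for SMG against ND and 1 to 2 for the F test. In SMG against ND the count was 1 after quantile normalization, 1 with all probes tested and 0 with only the compared arrays.

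Uncalled changes near 0 turned sign. After quantile normalization HFD against ND had 0.085 for Il1a, 0.066 for Il6, 0.12 for Il12b and 0.056 for Il33, and H_FMG against HFD had -0.079 for Il1a and -0.085 for Il12b. Leaving out 1 array, HFD against ND ran from -0.18 to 0.025 for Il1a, -0.12 to 0.19 for Il1b, -0.13 to 0.11 for Il6, -0.16 to 0.099 for Il12b and -0.15 to 0.095 for Il33, and H_FMG against HFD from -0.071 to 0.12 for Il1a, -0.089 to 0.11 for Il12b and -0.16 to 0.031 for Il33. The cause was not tested.

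With the title number as a replicate block, Il12b had 0.055 in HFD against ND and -0.17 in H_FMG against HFD, where Il33 had 0.022. The block changed the count of members called in no comparison, and what the numbers mark is not known.

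With the macrophage mean as a covariate (chosen after seeing the data), HFD against ND had -0.078 for Tnf, -0.050 for Il1rn and -0.17 for Il1r1, SMG against ND -0.0076 for Tnf and -0.10 for Il1r1, RMG against ND -0.075 for Il1r1, and H_FMG against HFD 0.026 for Tnf, 0.081 for Il1rn and 0.15 for Il1r1. The count of members called was then 0 in HFD, RMG and SMG against ND, and the cause was not tested.

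With the 5416 dimmest genes left out, 4 members remained in the test, and Il1a, Il1b, Il6, Il10 and Il12b have no value there.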

Other observations

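Some members had values that recurred on several arrays to every digit given. Il12b had 17 distinct values over 21 arrays, and 5 arrays held 3.04409. Il1r1 had 19, and 3 arrays held 7.06004. Il1b had 20, and the other 6 members had 21. Over all genes 65.9 percent had 21 distinct values.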
